A study of Mus musculus with 4 samples.

Results

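Cohesin is the ring-shaped complex that holds sister chromatids together, and the 9 genes described here encode its subunits that act in meiosis (Rec8, Rad21l, Stag3 and Smc1b) and their counterparts in mitotic cells (Rad21, Stag1, Stag2, Smc1a and Smc3). They were measured in GC-1 and GC-2, germ cell lines from mouse testis, on 4 one-colour Agilent expression arrays, 2 per line. Every non-control probe that the scanner files name after one of these genes was taken, which gave 19 of 56605 probes, for 9 of 37074 gene names. The meiotic subunits had 7 of these probes and the mitotic subunits 12. GC-1 was made from type B spermatogonia with the large T antigen of SV40, and GC-2 from spermatocytes with the same antigen and a temperature-sensitive form of p53. Both are immortalised lines that share the viral antigen, were grown in high-glucose medium with fetal bovine serum and antibiotics, and were collected near confluence without a treatment. Total RNA was copied from its poly(A) end with an oligo-dT primer, amplified and labelled with Cy3. The titles number the replicates but do not say whether they were grown separately, so the p-values reflect nothing beyond the spread among these 4 samples, part of which may be technical.

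A cohesin ring is built from a pair of SMC proteins, a kleisin that closes the ring, and a STAG protein that binds the kleisin. In dividing somatic cells the pair is Smc1a and Smc3, the kleisin is Rad21 and the STAG protein is Stag1 or Stag2. In germ cells entering meiosis, Smc1b takes the place of Smc1a, Rec8 or Rad21l that of Rad21, and Stag3 that of Stag1 and Stag2, while Smc3 serves in both settings.

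The sequences of the probes decide what each value reports, so those behind the main results are shown 5′ to 3′ as deposited. Of the 60 bases of a probe, only the last 30 are given for some of the most 3′ probes, which may lie in untranslated sequence. Capitals mark the letters ATTAAA, which match a common variant of the poly(A) signal, and a closing TGA, which matches a stop codon. In both probes that end in TGA, the first reading frame is open up to that codon.
Rec8 A_51_P246677, last bases: ttcccctgagcaagttcATTAAAccatatc
Stag3 A_51_P494822, last bases: gtgctatatatagatgctatgagccttgtc
Stag3 A_66_P114993: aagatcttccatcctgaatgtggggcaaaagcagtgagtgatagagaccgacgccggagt
Rad21l A_55_P2090835: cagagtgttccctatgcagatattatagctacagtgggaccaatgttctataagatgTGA
Smc1b A_51_P244303: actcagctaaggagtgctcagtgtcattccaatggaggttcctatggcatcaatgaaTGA
Stag1 A_52_P267446, last bases: atttaagggttacagactaccatgcaacaa
Stag1 A_52_P673971: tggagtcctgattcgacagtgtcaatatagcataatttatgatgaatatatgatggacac
Smc1a A_51_P123047, last bases: tatgcttgtgtgcatgttagattgtttgca
Smc1a A_52_P12481: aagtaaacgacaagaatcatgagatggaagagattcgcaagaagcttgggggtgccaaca
Smc3 A_55_P2130610, last bases: gtctttgcaatggttagaaacATTAAAtac
Smc3 A_66_P111148: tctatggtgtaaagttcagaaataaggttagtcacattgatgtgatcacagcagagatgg

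Values are processed intensities (signals), and their log2 after subtraction of the array's 75th percentile. That percentile was 665.8 and 692.8 for GC-1 against 415.9 and 199.9 for GC-2, and 57.5 to 64.9% of probes per array were well above background by the scanner's own flag. All 4 arrays lay on 1 slide with each line in its own row, so the line and the place on the slide cannot be told apart. The 8 E1A spike-in controls were 2.07 higher on the GC-2 arrays on the log2 scale before scaling (SD 0.46 over probes, higher on 8 of 8), and scaling to them moves the median change of all genes from -0.13 to -2.19. Where this scaling turns the direction of a cohesin subunit or of a gene named by rule, its value is given. Of 10 markers of premeiotic and meiotic germ cells, 4 and 2 were well above background in the GC-1 samples and 2 and 0 in those of GC-2, with summed signals of 232, 102, 53.8 and 19.2. Ddx4, a germ cell RNA helicase, and Spo11, which makes the meiotic double-strand breaks, were measured on both GC-1 arrays. Spo11 had signals of 159.1 and 56.37 in GC-1 and 1.72 and 1.545 in GC-2, a gap of at least 4.91-fold, which normexp reduced to a difference of -0.28 (adjusted p = 0.590, limma). Ddx4 had signals of 12.9 and 12.68 in GC-1 and 16.45 and 1.56 in GC-2, which overlap. Dazl, Sycp2, Dmc1, Hormad1 and Kit were above background on no array, Stra8 and Sycp1 on 1 GC-1 array each, and Sycp3 on 1 GC-2 array. In GC-1 only 2 of the 10 were measured on both arrays. Ddx4 was near the lowest signals that counted as well above background there, 9.11 and 11.45. No marker of the list was measured on both GC-2 arrays. These markers thus did not bear out the germ cell label in GC-2, and most of them did not in GC-1 either. Several of them mark meiosis, a later stage than the spermatogonia GC-1 was made from, so those say little about its label.

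Of the meiotic subunits, Rec8 was measured in both lines, Stag3 in GC-1 alone, and Rad21l and Smc1b on no array. The mitotic subunits were all measured in both lines. The Rec8 probe with a value, A_51_P246677 (chr14:56244160-56244219 on mm9, plus strand), gave signals of 151 and 175.8 in GC-1 and 94.85 and 71.38 in GC-2. After scaling these were -2.14 and -1.98 against -2.13 and -1.49 on the log2 scale. The ranges overlapped, with GC-2 replicate 2 the highest. Its change from GC-1 to GC-2 was 0.25 ± 0.30 (SE, n = 2 per line) with a 95% interval of -0.50 to 1.01, and limma's adjusted p over all probes was 0.53. The direction turned under median centring, spike-in scaling and without GC-2 replicate 2. The other Rec8 probe, A_55_P2929396, lies 7080 bases upstream and was at 1.562 to 2.367, well above background on no array.

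Stag3, the meiotic STAG protein, was measured in GC-1 and was not well above background in GC-2. Probe A_51_P494822 (chr5:138753402-138753461, plus strand) gave signals of 129.7 and 107.3 in GC-1 and of 2.008 and 1.572 in GC-2. The groups did not overlap, and neither GC-2 value was well above background. Set against the lowest signal that counted as above background on those arrays, Stag3 in GC-1 stood at least 6.12-fold higher. Such a bound compares the bright line's mean log2 value with the mean of that lowest signal, or the probe's own where higher. The fitted difference of -4.82 ± 0.32 (adjusted p = 0.000433 in limma) is no estimate of size, since the GC-2 side has only a bound. The probe entered the test only through its GC-1 arrays, so this p-value adds no support to the difference. After normexp background correction, with an offset of 50 that lifts dim spots, the difference was -0.40 and the adjusted p 0.385, which ends the call.

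The other Stag3 probe, A_66_P114993 (chr5:138739300-138739564), lies 13897 bases upstream of the first. Its span is longer than the probe, as of a probe across a splice junction. It was well above background nowhere, GC-1 included, with 4.771 and 2.49 in GC-1 and 1.955 and 1.592 in GC-2. The Stag3 result therefore rests on 1 probe, the more 3′ of the pair, whose closing bases are shown above. Rad21l, a meiotic kleisin, had 1 probe at 3.197, 2.503, 1.751 and 1.555 on the GC-1 and GC-2 arrays in turn. Smc1b, the meiotic partner of Smc3, had 2.78, 2.917, 1.843 and 1.592 at A_51_P244303, the probe that ends in TGA. Its second probe, A_55_P2582435, lies 6840 bases upstream and gave 1.896 to 2.366. Well-above-background signals began at 7.722 to 11.45 per array, so these probes set only an upper limit on both transcripts in both lines.

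**Figure D1:**
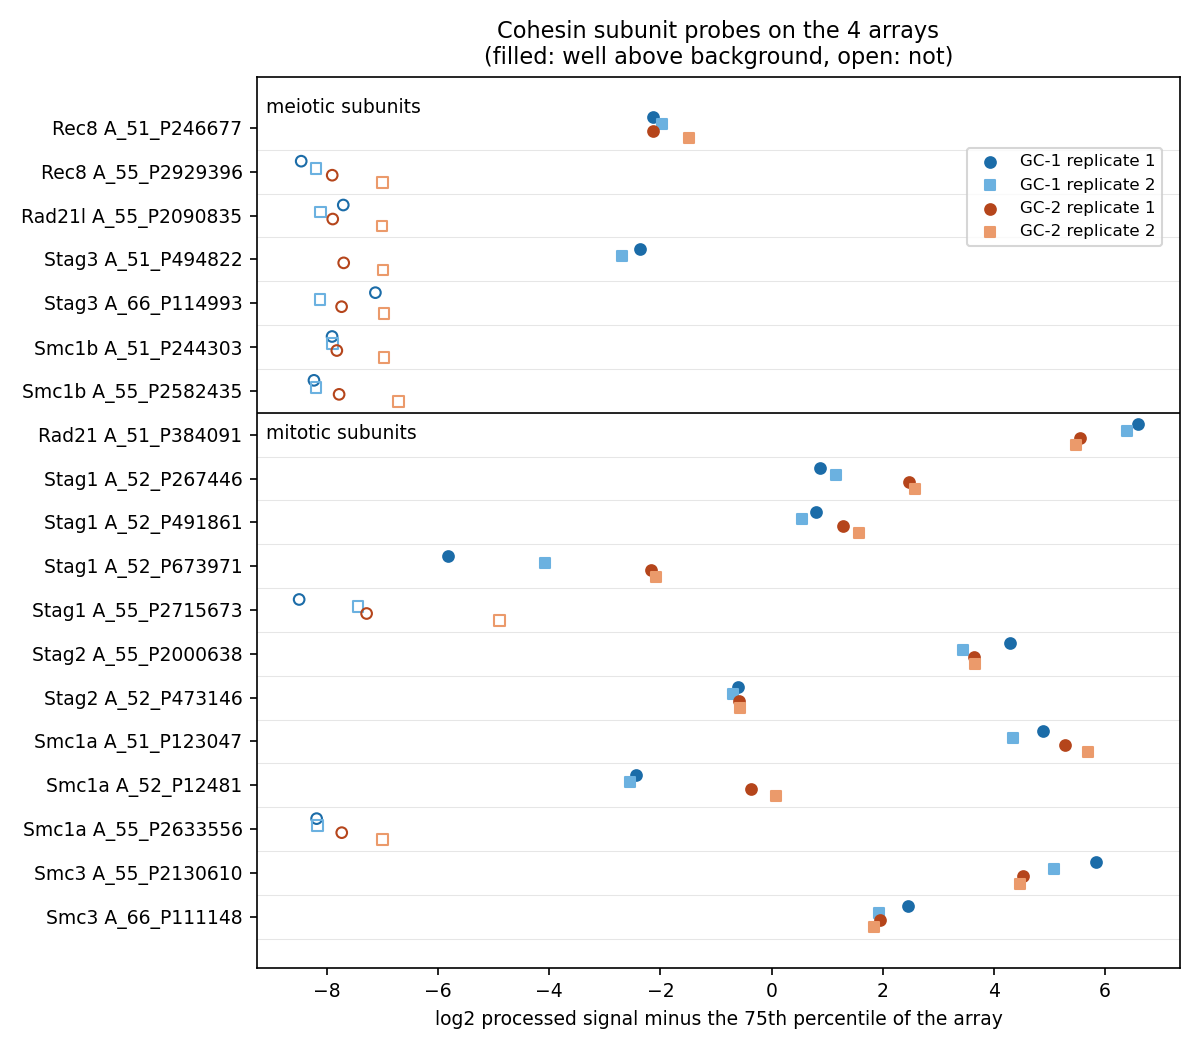
Log2 processed signal minus the array's 75th percentile (horizontal axis) for each of the 19 cohesin probes, meiotic above and mitotic below, with 1 point per array, filled where the spot was well above background. Rec8 A_51_P246677 is filled on all 4 arrays, Stag3 A_51_P494822 on the GC-1 arrays only, and the Rad21l and Smc1b probes on none; a level cannot be compared between probes.

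Among the mitotic subunits, Stag1 and Smc1a were higher and Rad21 lower in GC-2, each with at least 1 probe past an adjusted p of 0.05. Spike-in scaling turned some probes of Stag1 and Smc1a, and under it no cohesin probe was called higher. Stag1 is a STAG protein of mitotic cohesin, Smc1a its SMC partner of Smc3, and Rad21 the kleisin that separase cuts at anaphase. Of the 12 cohesin probes tested, 5 passed, or 41.7%, against 45.7% of all 36692 probes tested. Of the 12, 3 were higher and 2 lower in GC-2, and of all probes 24.1% were higher and 21.6% lower. With quantile normalization 7 of 12 passed (5 higher), and 7 of 11 with probes above background on all 4 arrays. Their median change was 0.16 against 0.07 for all probes. Values did not overlap between the lines for 75% of them, against 76.9% of all probes. Only 2 meiotic probes passed the filter on dim probes, and 1 of them, of Stag3, did so through the line where it is bright. That probe is among the 5 that passed the threshold and the 2 that were lower.

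Rad21 had 1 probe, A_51_P384091 (chr15:51794326-51794385, minus strand), with signals of 64000, 58100, 19540 and 8913 on GC-1 replicates 1 and 2 and GC-2 replicates 1 and 2. After scaling the log2 values were 6.59 and 6.39 in GC-1 and 5.55 and 5.48 in GC-2. Both GC-1 arrays lay above both GC-2 arrays. The change was -0.97 ± 0.23 (95% interval -1.56 to -0.39) with an adjusted p of 0.0207 in limma. Leaving out any single array kept the direction and raised the adjusted p to between 0.0543 and 0.0867, so the call needs all 4 arrays.

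Stag1 had 3 probes tested, all higher in GC-2 with the percentile scaling and none overlapping between the lines. The probe nearest the 3′ end, A_52_P267446 (chr9:100858705-100858764, plus strand), rose from 0.88 and 1.15 in GC-1 to 2.47 and 2.58 in GC-2, a change of 1.51 ± 0.24 (adjusted p = 0.00563, limma). The most upstream one, A_52_P673971 (chr9:100686985-100687044), rose from -5.82 and -4.07 to -2.16 and -2.07, or by 2.83 ± 0.57 (adjusted p = 0.0121, limma). Its GC-1 signals were 11.8 and 41.3, close to the limit of detection, and its GC-1 arrays differed more from each other than its GC-2 arrays did. The change was 1.95 without GC-1 replicate 1, 3.70 without GC-1 replicate 2 and 1.65 with normexp, all past the threshold. A_52_P491861 (chr9:100857689-100857748) had 0.79 and 0.55 against 1.29 and 1.57, a difference of 0.76 ± 0.25 that missed the threshold (adjusted p = 0.0544, limma). Under spike-in scaling the changes of A_52_P267446 and A_52_P491861 turn, to -0.56 and -1.31. That of A_52_P673971 is 0.76 and no longer past the threshold (adjusted p = 0.165, limma). A further Stag1 probe, A_55_P2715673, which carries a transcript accession of its own, gave 1.844 to 6.71 and was well above background on no array.

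Stag2, the other mitotic STAG protein, gave no change past the threshold at either probe. A_55_P2000638 (chrX:39630266-39630325, plus strand) had scaled values of 4.30 and 3.44 in GC-1 and 3.64 and 3.66 in GC-2, a difference of -0.21 with a 95% interval of -1.07 to 0.64. A_52_P473146 (chrX:39565129-39565188) had -0.60 and -0.70 against -0.58 and -0.57, a difference of 0.07 (interval -0.49 to 0.64). The adjusted p-values were 0.639 and 0.81 in limma, and spike-in scaling turned the second difference to -1.99. The GC-2 arrays lay between the GC-1 arrays at the first probe, and all 4 arrays lay between -0.70 and -0.57 at the second.

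Smc1a was measured by 2 probes, both higher on each GC-2 array than on either GC-1 array with the percentile scaling. A_52_P12481 (chrX:148481288-148481347, plus strand) had signals of 123.2 and 118.8 in GC-1 and 321.7 and 210.9 in GC-2, so it was brighter in GC-2 before any scaling. Its scaled values rose from -2.43 and -2.54 to -0.37 and 0.08, by 2.34 ± 0.26 (adjusted p = 0.00191, limma). A_51_P123047 (chrX:148496427-148496486), at the 3′ end, had 4.88 and 4.34 against 5.28 and 5.69, a difference of 0.88 ± 0.30 that missed the threshold (adjusted p = 0.0627, limma). With spike-in scaling the first was 0.27 (adjusted p = 0.469) and the second turned to -1.19. The remaining probe, A_55_P2633556, was at 1.559 to 2.418 and above background nowhere.

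Smc3, which both kinds of ring contain, was lower in GC-2 at both of its probes without passing the threshold. A_55_P2130610 (chr19:53719568-53719627, plus strand), the one that holds the letters ATTAAA, had scaled values of 5.83 and 5.08 in GC-1 and 4.53 and 4.47 in GC-2. Its difference was -0.96 ± 0.32 with an adjusted p of 0.0569 in limma, which some settings took past the threshold and others did not. The limma adjusted p was 0.0417 with the replicate number as a block, 0.0194 with normexp and 0.0267 with median centring. It was 0.0391 with probes above background on all 4 arrays, 0.113 with quantile normalization and 0.118 without a filter on dim probes. The mean of the gene's probes gave -0.62 (adjusted p = 0.118) and the authors' table -0.67 (adjusted p = 0.149). Leaving out 1 array gave changes of -1.34 to -0.58. A_66_P111148 (chr19:53718415-53719230, a span longer than the probe, as of a probe across a splice junction) had 2.45 and 1.94 against 1.96 and 1.85, a difference of -0.29 ± 0.28 (adjusted p = 0.427). The lines did not overlap at the first probe and overlapped at the second.

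**Figure D2:**
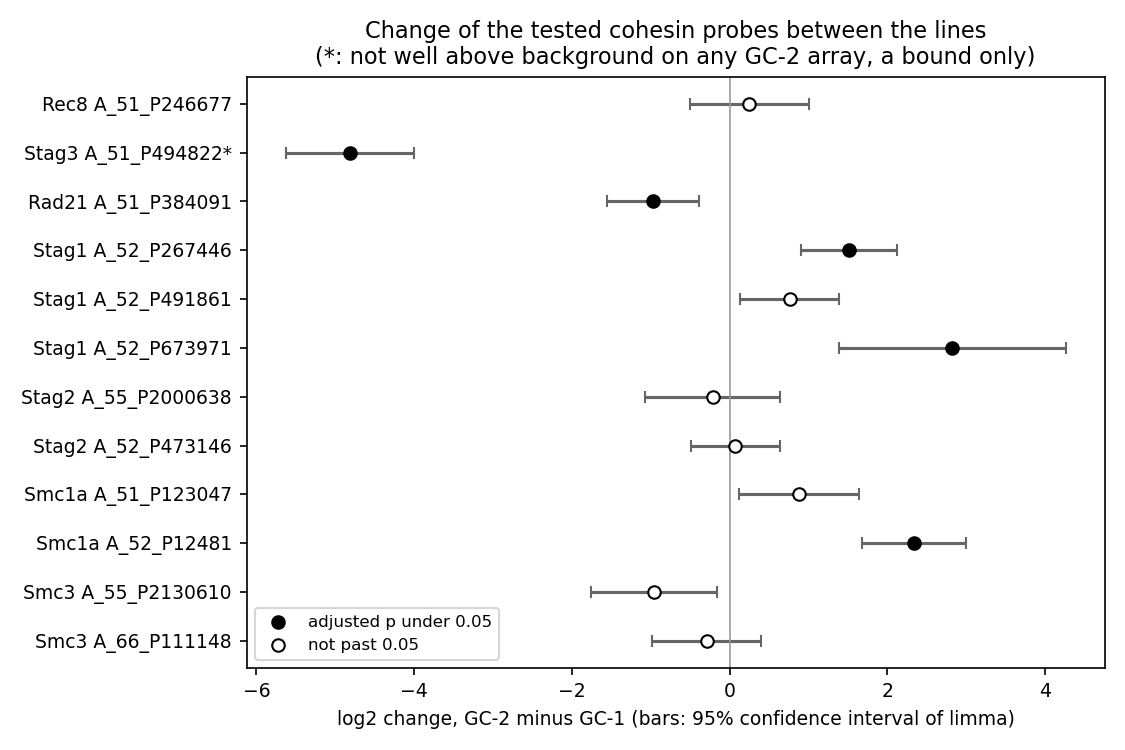
Change from GC-1 to GC-2 in log2 units (horizontal axis) for the 12 cohesin probes tested, with limma's 95% confidence interval as the bar and filled points where the adjusted p was under 0.05. Stag1 and Smc1a lie to the right of 0 (A_52_P267446, A_52_P491861 and A_51_P123047 turn under spike-in scaling), Rad21 and Smc3 to the left, and Stag3 is marked because it has only a bound in GC-2.

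Differences between subunits on the same array do not depend on how arrays were scaled, so they were used to ask whether the subunits shifted against each other. A probe's own brightness enters each difference, so the difference itself says nothing about relative abundance, and only its shift from GC-1 to GC-2 is read. The shifts are given as descriptions with no test. An exact two-sided permutation test of 2 arrays against 2 cannot give a p below 0.333.

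Each meiotic subunit with a value was set against its counterpart. Rec8 minus Rad21 was -8.73 and -8.37 in GC-1 and -7.69 and -6.96 in GC-2, a shift of 1.22 towards Rec8, or 2.33-fold, without overlap. Rec8 alone showed no change past the threshold, and Rad21 was lower. Stag3 minus Stag1 went from -3.23 and -3.84 to -10.17 and -9.57, which amounts to a fall of at least 17.5-fold when Stag3 is put at the detection limit in GC-2. Stag3 minus Stag2 went from -6.66 and -6.13 to -11.34 and -10.65, a fall of at least 5.28-fold on the same terms. After normexp the Stag3 shift was -1.72 against Stag1 and 0.06 against Stag2. Rad21l and Smc1b have no such value, since both were at background.

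The pairs of mitotic subunits were compared after their values had been seen. Stag1 minus Stag2 was -3.42 and -2.29 in GC-1 and -1.17 and -1.08 in GC-2, a shift of 1.73 or 3.31-fold towards Stag1. The sign was the same in 6 of 6 combinations of their probes, with shifts of 0.69 to 3.04, and no combination overlapped. Smc1a minus Smc3 moved from -0.96 and -0.73 to 0.75 and 1.23, a shift of 1.84 or 3.57-fold towards Smc1a. It had the same sign in 4 of 4 probe combinations (1.17 to 3.30) with no overlap, and normexp left the sign of every combination of these pairs as it was. For both pairs the combinations reuse probes and their common sign follows from the probe changes given above, so these counts add no support. Among all single probes tested, 76.9% did not overlap, and no such share was computed for pairs. Rad21 minus Smc3 stayed at 0.75 and 1.31 in GC-1 and 1.03 and 1.01 in GC-2, a shift of -0.01 with overlapping arrays, and of -0.68 with the other Smc3 probe. Against Rad21, the shifts were 1.85 for Smc1a, 2.48 for Stag1 and 0.76 for Stag2. Those 3 values share the Rad21 probe and are not independent of one another.

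**Figure D3:**
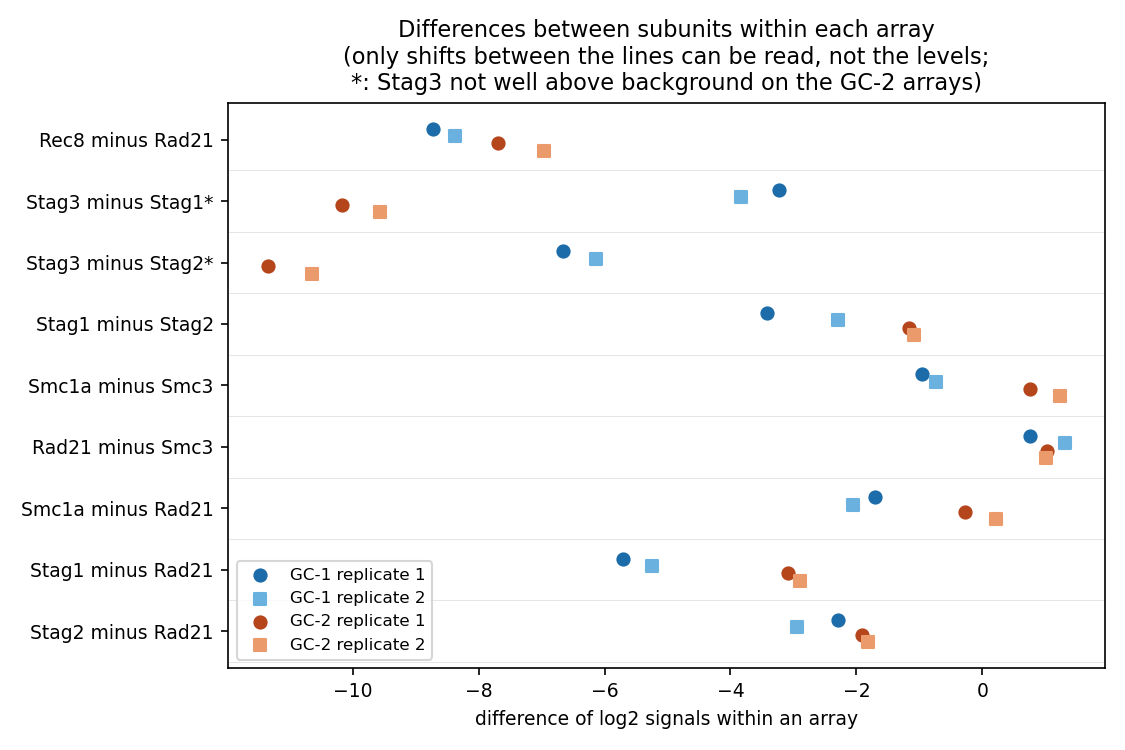
Within-array difference of log2 signal between subunits (horizontal axis), 1 point per array, with each subunit shown by its tested probe of highest mean. The GC-2 points lie right of the GC-1 points for Rec8 minus Rad21, Stag1 minus Stag2 and Smc1a minus Smc3, left of them for the Stag3 pairs, and among them for Rad21 minus Smc3.

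Probes of 1 gene did not change by the same amount, and in each of the 4 cohesin genes with several tested probes the most upstream probe leaned more towards GC-2 than the most 3′ one. The change at the most upstream probe exceeded that at the most 3′ probe by 1.31 in Stag1 (171720 bases apart in the genome), 1.47 in Smc1a (15139 bases), 0.29 in Stag2 (65137 bases) and 0.67 in Smc3 (397 bases). The same lean ran across the arrays. Over 7652 genes with several tested probes on 1 strand, the median of this difference was 0.51 (quartiles -0.28 and 1.51), and it was above 0 in 66.4%. A difference at least as large as that of Stag1, in either direction, was found in 38.4% of genes, and for Smc1a in 33.8%. The middle probe of Stag1, A_52_P491861, went the other way, with 0.76 against 1.51 at the most 3′ probe. Labelling started at the poly(A) end, and the part of probe position in the changes of Stag1 and Smc1a was not tested.

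**Figure D4:**
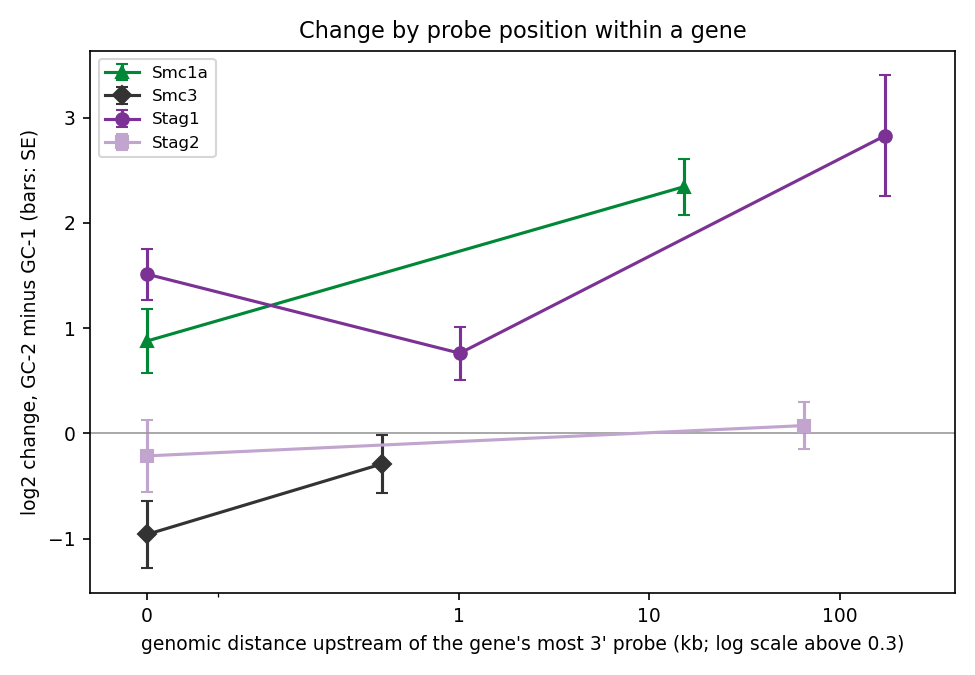
Log2 change from GC-1 to GC-2 with its SE (vertical axis) against genomic distance upstream of the gene's most 3′ tested probe (horizontal axis, in kilobases, log scale above 0.3), with a line joining the probes of a gene. In Stag1, Stag2, Smc1a and Smc3 the most upstream probe lies above the most 3′ probe, by 1.31, 0.29, 1.47 and 0.67.

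The promoters of Stag3 and Smc1b are shown because these meiotic genes differed in whether any signal was seen, and that of Rec8 beside them. In somatic cells both Stag3 and Smc1b are known to be silenced by E2F6, a repressor of the E2F family. RefSeq windows on GRCm38.p6 matched 7 of the 9 genes, Rad21 and Stag2 not among them. The letters TTCCCGC, an E2F-type motif, and CACGTG, an E-box, were searched on both strands of the 300 bases from 250 before to 50 after the start. The 2 motifs share no letters where they occur. Each window is printed to 10 bases past the start, in the direction of transcription, with matches in capitals.
Stag3, chr5:138280259-138280518, plus strand: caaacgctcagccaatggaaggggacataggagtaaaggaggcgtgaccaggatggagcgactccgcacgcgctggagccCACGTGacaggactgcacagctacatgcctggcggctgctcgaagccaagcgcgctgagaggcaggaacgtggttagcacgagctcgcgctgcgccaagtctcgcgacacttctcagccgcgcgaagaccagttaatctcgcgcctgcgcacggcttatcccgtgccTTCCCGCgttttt
Smc1b, chr15:85131948-85132207, minus strand: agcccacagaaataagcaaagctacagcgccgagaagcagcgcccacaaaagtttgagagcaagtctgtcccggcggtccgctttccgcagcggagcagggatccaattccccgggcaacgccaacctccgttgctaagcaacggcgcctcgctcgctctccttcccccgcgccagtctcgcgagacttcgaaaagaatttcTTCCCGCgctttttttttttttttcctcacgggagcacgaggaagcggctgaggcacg
Rec8, chr14:55617916-55618175, plus strand: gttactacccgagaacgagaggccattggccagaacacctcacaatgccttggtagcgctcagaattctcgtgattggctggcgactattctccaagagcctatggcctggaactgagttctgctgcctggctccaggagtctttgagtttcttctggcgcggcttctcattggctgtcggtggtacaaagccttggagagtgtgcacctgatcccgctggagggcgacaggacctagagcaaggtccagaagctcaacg

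Counted from the start site, TTCCCGC began at -3 in Stag3 and at -48 in Smc1b. It also occurred in the windows of the mitotic genes Stag1 (-16) and Smc1a (39 after the start), and not in those of Rec8, Rad21l or Smc3. Of all 32851 windows, 4.6% hold it. CACGTG was found in the Stag3 window alone among the 7, at -170, and in 7.2% of all windows. The windows held 30 CG dinucleotides in Stag3, 29 in Smc1b, 18 in Rec8 and 2 in Rad21l, and 43, 23 and 32 in Stag1, Smc1a and Smc3, against a median of 7 over all windows. Rad21l and Smc1b, the meiotic genes without a signal, held 2 and 29 CG dinucleotides. The windows with TTCCCGC were those of Smc1b, of Stag3, and of Stag1 and Smc1a, which were measured in both lines. These are matches of letters in a window. No methylation or binding was measured, and a link between motif or CG content and the signals was not tested.

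Of 17 genes that load, acetylate, protect, release or cut cohesin, 16 were tested, 1 was higher and 4 were lower in GC-2, and 11 did not pass. That is 31.2% of the list against 43.5% of all 17437 genes tested, of which 18.1% were higher and 25.5% lower, so the share called in the list was below that of all genes. Their median change was -0.25 against -0.13 for all genes. Esco2, the acetyltransferase that locks cohesin on replicated DNA, had scaled values of -1.32 and -1.51 in GC-1 and -0.32 and -0.62 in GC-2, a change of 0.94 ± 0.25 (adjusted p over genes 0.0294, limma). Both GC-2 arrays were above both GC-1 arrays, but spike-in scaling turned the change to -1.12.

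The 4 regulators that were lower have roles at different steps. Sgo2a, the shugoshin that shields centromeric Rec8 in meiosis I, was at -0.08 and -0.48 in GC-1 and -1.45 and -1.35 in GC-2, a change of -1.12 ± 0.26 (adjusted p = 0.0193, limma). Wapl, which opens the ring and releases it from chromatin, changed by -0.90 ± 0.26 (adjusted p = 0.0374). Pttg1, the securin that holds separase inactive, changed by -0.90 ± 0.27 (adjusted p = 0.0428), and Sgo1, the mitotic shugoshin, by -0.78 ± 0.24 (adjusted p = 0.0459). The GC-1 and GC-2 arrays did not overlap for any of the 4, which were named for passing the threshold, nor for 76.9% of all probes tested. Without 1 array the list had 0 calls (GC-1 replicate 1, GC-2 replicate 1 or GC-2 replicate 2 left out) or 1 call (GC-1 replicate 2 left out). The call that remained was Sgo2a, with a change of -1.32, and those of Wapl, Pttg1, Sgo1 and Esco2 needed all arrays in the fit. Sgo2a itself had no call with normexp (-0.79, adjusted p = 0.0692, limma) or without a filter on dim probes (adjusted p = 0.0537). Quantile normalization ended the calls of Wapl (adjusted p = 0.0674) and Sgo1 (adjusted p = 0.123). Median centring ended that of Esco2 (adjusted p = 0.13).

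Other regulators named by rule gave no call. Nipbl, which loads cohesin, had a difference of -0.70 ± 0.33 (adjusted p = 0.141, limma), and Espl1, the separase that cuts Rad21 and Rec8, of -0.12 ± 0.27 (adjusted p = 0.742). Meikin, which acts with Rec8 at the meiosis I kinetochore, was well above background on 1 array, GC-2 replicate 1. Its signals were 2.197 and 6.232 in GC-1 and 26.56 and 7.82 in GC-2, and it was not tested.

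The other SMC complexes gave calls whose number and direction depended on the processing. Of 14 genes of condensin, which compacts chromosomes, and of Smc5/6, a repair complex, 0 rose (18.1% of all genes did) and 4 fell, 28.6% against 25.5% of all genes, a share near the background, and the median change was -0.61. Quantile normalization gave 2 higher and 2 lower, the mean of a gene's probes 2 and 3, the probes above background on all 4 arrays 2 and 5, and the authors' log2 values 1 and 4. The higher ones were Ncapd2 and Ncaph2, subunits of condensin I and II that were not past the threshold here and are named after their values were seen. Their changes here were 0.86 and 0.88, and spike-in scaling turned them to -1.21 and -1.19. Smc5, the core ATPase of its complex, fell from 4.88 and 3.97 to 2.81 and 2.95, by 1.55 ± 0.36 on the log2 scale (adjusted p = 0.0192, limma). Nsmce1, a RING-domain subunit of the same complex, had a change of -0.90 ± 0.25 (adjusted p = 0.0341). Ncapd3, of condensin II, had -1.19 ± 0.28 (adjusted p = 0.0217), and Smc2, shared by both condensins, -1.20 ± 0.36 (adjusted p = 0.0420). The Smc2 value rests on the probe chosen for it, since the mean of its probes gave -0.10 (adjusted p = 0.731). Leaving out GC-1 replicate 1 or GC-2 replicate 2 gave 0 calls. Without GC-2 replicate 1 the only call was Ncapd2, higher in GC-2 by 1.13, and without GC-1 replicate 2 the calls were Smc2, Smc5, Ncapd3 and, also named after its value was seen, Smc4, all lower.

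Genes of dividing cells were followed beside the mitotic subunits, whose level can go with growth. Of 16 tested, 1 was higher, 2 were lower and 13 did not pass, with a median of 0.02. That is 18.8% called against 43.5% of all genes (18.1% higher, 25.5% lower). Mcm2, of the replicative helicase, was the one higher, by 1.51 ± 0.25 (adjusted p = 0.00663, limma). Under spike-in scaling 15 of the 16 were called, 0 of them higher, and Mcm2 was the one without a call. Aurka, a mitotic kinase, had a change of -1.56 ± 0.26, and Bub1, a checkpoint kinase, of -0.97 ± 0.24. These 3 are named after their values were seen. Mki67, a marker of cycling cells, had 0.57 ± 0.28 (adjusted p = 0.152, limma), Top2a, the chromosome topoisomerase, 0.01 ± 0.26 (adjusted p = 0.987), and Cdk1, the mitotic kinase, 0.07 ± 0.24 (adjusted p = 0.831). Spike-in scaling turned Mki67 to -1.50, Top2a to -2.06 and Cdk1 to -2.0. The 3 called genes went both ways, 13 of 16 did not pass, and the part of growth state in the cohesin changes was not tested.

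**Figure D5:**
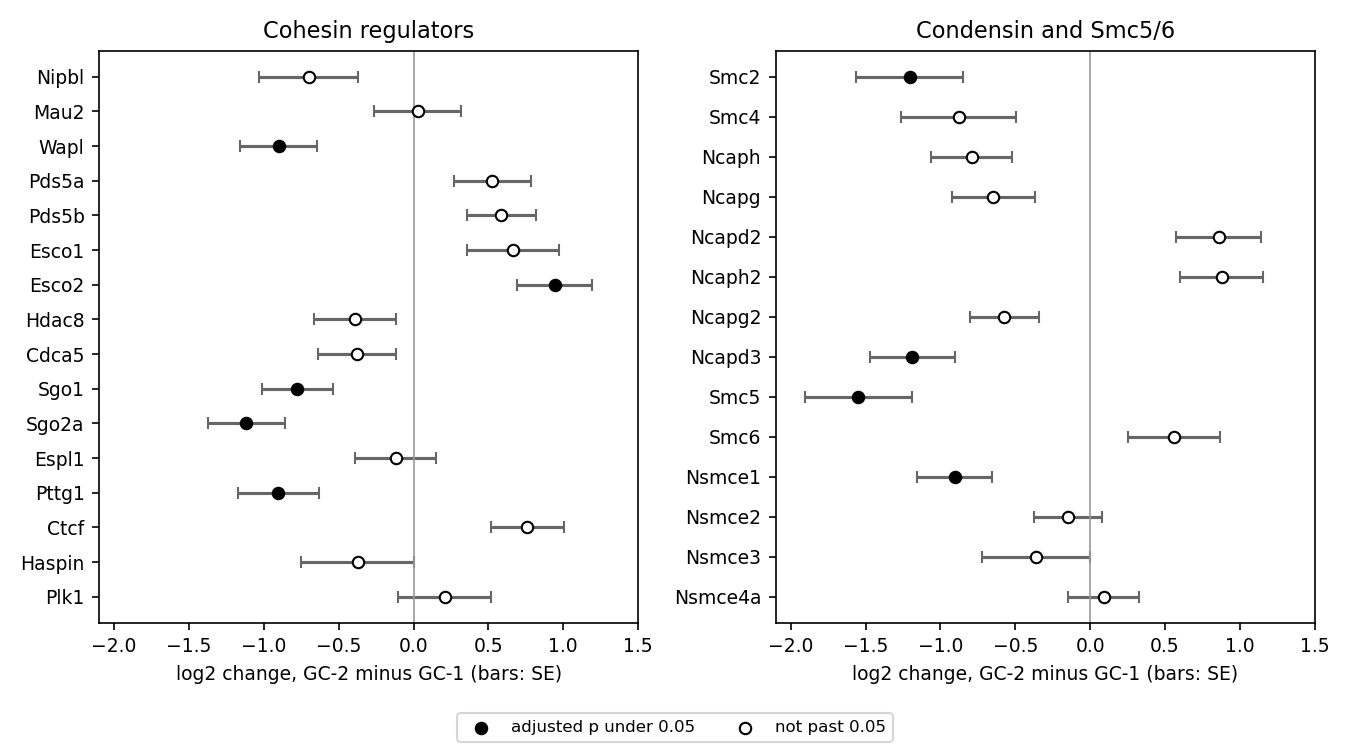
Log2 change from GC-1 to GC-2 with its SE (horizontal axis) for the 16 regulators of cohesin tested (left) and the 14 genes of condensin and Smc5/6 (right), with filled points where the adjusted p over 17437 genes was under 0.05. Esco2 is the filled point right of 0 among the regulators (it turns under spike-in scaling), and the 4 filled points of the right panel, Smc2, Ncapd3, Smc5 and Nsmce1, all lie left of 0.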

How the data were processed

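Per the file headers, Agilent Feature Extraction 11.5.1.1 read the 4 arrays (Cy3, 1 colour), and gives each deposited spot a background-subtracted processed intensity, its raw mean intensity and local background, and flags for spots well above background. Values are log2 of the processed intensity minus the array's 75th percentile over 56605 non-control probes, without outlier-flagged spots (92 to 224 per array). No spot was saturated. The authors' deposited series table holds log2 values, 1 per gene name, and was used as an alternative. For genes with several probes, its rule was not given in the sources used here. Probes entered the test if the 2 arrays of either line were both well above background there. The change from GC-1 to GC-2 was tested two-sided by limma (version 3.58.1, R 4.3.3; lmFit, eBayes) with Benjamini-Hochberg adjustment over 36692 probes for the cohesin subunits, or over 17437 genes for the lists, each gene by its tested probe of highest mean and named through RefSeq GRCm38. Lines and replicate numbers came from the titles. The number of arrays limits the precision.

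The members, gene lists and alternatives were chosen with earlier results of these data known. Named in the text were all members with all probes, each regulator or SMC gene past the threshold of 0.05, a few regulators whatever their value (Nipbl, Wapl, Esco2, Sgo2a, Espl1, Meikin), Mki67, Top2a and Cdk1, and all germ cell markers. Deviations from the line means correlated at 0.12 between arrays of the same number, over 2 pairs, so the numbers were taken as names. Probe positions are on mm9, as in the scanner files. The fit was checked on simulated data.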

Additional observations from a re-analysis of the deposited data

How the results depend on the processing

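The calls of the Stag1 and Smc1a probes held without any single array, and Rad21's did not. Scaling to the spike-ins called 15831 genes (652 higher, 15179 lower) against 7593, 9 cohesin probes (0 higher) against 5, and 16 regulators, 14 other SMC genes and 15 proliferation genes. It turned Rec8 to -1.82, Stag1 A_52_P267446 to -0.56 and A_52_P491861 to -1.31, Stag2 A_52_P473146 to -1.99, Smc1a A_51_P123047 to -1.19, Esco2 to -1.12, Mki67 to -1.50, Top2a to -2.06 and Cdk1 to -2.0. Ncapd2 turned to -1.21 and Ncaph2 to -1.19. The cause of these shifts was not tested. Median centring gave 2273 genes higher and 5848 lower, the mean of a gene's probes 4166 and 4077, against 3150 and 4443. The median change of all genes was 0.15 with normexp, -0.44 with median centring, 0.20 without a filter and 0.03 with the mean of probes. Leaving out 1 array called 4378 to 5725 genes, 4 to 5 cohesin probes, 0 to 1 regulators, 0 to 4 other SMC genes and 2 proliferation genes.

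Regulator calls numbered 1 without a filter on dim probes (Meikin, none of the 5), 8 with the mean of probes and 3 in the authors' log2 table, against 5. Calls among other SMC genes numbered 7 with median centring, 7 with probes above background on all 4 arrays and 1 without a filter, against 4. Normexp moved Stag3 minus Stag1 to -1.72 and turned Stag3 minus Stag2 to 0.06, Top2a to -0.23, Cdk1 to -0.14 and Ddx4 to 1.02. Without 1 array the shifts were 0.86 to 1.58 for Rec8 minus Rad21, -6.64 to -6.03 for Stag3 minus Stag1 and -4.95 to -4.26 for Stag3 minus Stag2. Median centring turned Rec8 to -0.06, Stag2 A_52_P473146 to -0.24, Top2a to -0.31 and Cdk1 to -0.24, and quantile normalization turned Stag2 A_55_P2000638 to 0.08 and Espl1 to 0.14. Top2a was -0.01 with the mean of probes and -0.06 in the authors' table. Leaving out 1 array gave changes on both sides of 0 for Rec8 (-0.07 to 0.57), Stag2 A_55_P2000638 (-0.64 to 0.21), Espl1 (-0.33 to 0.09, with 0.02 also above 0), Top2a (-0.16 to 0.17, with -0.11), Cdk1 (-0.08 to 0.23) and Ddx4 (-1.27 to 1.07). Each such fit assumes that the lone array varies like the other line. Of the reversals listed in this section, only those of Stag1 A_52_P267446 and Esco2, both under spike-in scaling, were past the threshold in the fit reported. Mcm2, also past the threshold in that fit, had no call under spike-in scaling.

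With the replicate number as a replicate block, 7673 genes, 6 cohesin probes, 4 regulators, 4 other SMC genes and 3 proliferation genes were called. Smc3 A_55_P2130610 passed (adjusted p = 0.0417, limma) and Sgo1 did not (adjusted p = 0.0632). Dim probes limit what can be said: Rad21l and Smc1b have no value in either line, and Stag3 none in GC-2.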
